A study of Homo sapiens with 8 samples.

Results

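The G1/S control genes described here are the D-type cyclins *CCND1*, *CCND2* and *CCND3*, their kinases *CDK4* and *CDK6*, the pocket protein gene *RB1*, the E-type cyclins *CCNE1* and *CCNE2*, their kinase *CDK2*, and *CDKN1A*, which encodes the CDK inhibitor p21. They are 10 of the 43317 gene names on the array, and were found by matching the gene name of every non-control probe to these symbols. The 10 genes had 11 probes, with 2 probes for *CCNE2* and 1 for each of the other 9 genes. The probes of *CCND1* and *RB1* were each printed as 10 spots on every array.

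Gene expression was measured on 8 two-colour Agilent Human GE 60K arrays in 5 human cancer cell lines. On each array Cy3 marked total RNA of mock cells, without the small RNA, and Cy5 that of transfected cells. PC3 prostate cancer cells were transfected with si-PIR-2 on 1 array and with si-PIR-3 on another, both of which are small interfering RNAs against *PIR*. SK-MES-1 lung squamous cell carcinoma cells received miR-144-5p or miR-144-3p, and PANC1 pancreatic cancer cells received miR-130-5p or miR-130-3p, with 1 array each. miR-204-5p was transfected into SW1990 pancreatic cancer cells and into MDA-MB-231 breast cancer cells, with 1 array for each line. All transfections used Lipofectamine RNAiMAX. The paper writes of mock-transfected cells, but whether the mock cells on these arrays received the reagent is not known. The effects of reagent and RNA therefore cannot be told apart. No dyes were swapped, and a dye effect on a probe cannot be told apart from a transfection effect. A log2 ratio is the log2 of Cy5 over Cy3, so that values above 0 are higher in transfected cells and values below 0 higher in mock cells.

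At the transition from G1 to S phase, D-type cyclins bind CDK4 or CDK6 and phosphorylate the RB1 protein, which otherwise holds E2F transcription factors inactive. Released E2F drives transcription of DNA replication genes and of the E-type cyclins, which activate CDK2. p21 binds cyclin-CDK complexes and is a transcriptional target of p53. A miRNA recognises its target messages mainly through its seed, and *CCNE1* and *CCNE2* have been reported as targets of miR-144-5p.

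The mature sequences of the transfected miRNAs, taken from RefSeq (GRCh38.p14), are shown with the seed (bases 2 to 8 from the 5′ end) in capitals because the seed sets which messages each one can pair with. The labels give miR-130 without the letter a or b, so both 5p candidates are given, and hsa-miR-130a-3p is named only.
hsa-miR-144-5p: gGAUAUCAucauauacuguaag
hsa-miR-144-3p: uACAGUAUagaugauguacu
hsa-miR-204-5p: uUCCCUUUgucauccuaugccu
hsa-miR-130a-5p: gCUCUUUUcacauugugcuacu
hsa-miR-130b-5p: aCUCUUUCccuguugcacuac
hsa-miR-130b-3p: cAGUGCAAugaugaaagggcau
The 6 sequences had 6 different seeds. The sites that pair with these seeds, read on the probe strand, are TGATATC for miR-144-5p and ATACTGT for miR-144-3p. For miR-204-5p the site is AAAGGGA and for miR-130a-5p it is AAAAGAG. For miR-130b-5p the site is GAAAGAG and for miR-130b-3p it is TTGCACT. None of these sites lay within the 11 probes of the G1/S genes, each 60 bases long. Among all 58201 probes, the shares with such a site were 0.256%, 0.421%, 0.713%, 0.99%, 0.918% and 0.412%, in the same order. The absence of a site says only that these letters are not in the probe window.

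On each array, 41.4% to 46.4% of probes were well above background in Cy3 and 49.8% to 54.6% in Cy5, and no spot was saturated. *PIR*, the targeted gene, had log2 ratios of -5.46 with si-PIR-2 and -4.27 with si-PIR-3 (limma adjusted p = 0.395), the direction their labels imply. *PIR* was also low with miR-130-5p in PANC1, at -1.59, and lay between -0.24 and 0.05 on the other 5 arrays. The miR-130-5p array had the widest spread, with a standard deviation over genes of 0.715 against 0.481 to 0.587 on the other 7 arrays. Of the prostate markers, *HOXB13* was well above background in mock PC3 cells on both arrays and *KLK3* and *KLK2* on neither. SK-MES-1 showed *TP63*, *SOX2* and *KRT14* but not *KRT5*, *KRT6A* or *DSG3*. SW1990 passed 4 of the 6 lung squamous markers (*KRT5*, *KRT6A*, *SOX2* and *KRT14*). The pancreatic ductal markers did not set SW1990 and PANC1 apart, since *KRT19*, *KRT7*, *MUC1* and *SOX9* passed and *PDX1* and *CFTR* did not in each of the 5 lines. MDA-MB-231 showed *ESR1*, *ERBB2*, *GATA3* and *KRT18* but not *PGR* or *FOXA1*. The breast markers did not set this line apart either, since *ERBB2*, *GATA3* and *KRT18* passed in each of the 5 lines. *ESR1* was dim in MDA-MB-231, at -2.96 on the scale given next, and it also passed in SK-MES-1, at -2.80. Of 6 leukocyte and endothelial markers, 2 to 5 passed on all arrays of a line, where those that passed lay between -2.90 (*CD3E* in PC3) and 1.28 (*CD14* in MDA-MB-231) relative to the 75th percentile of the array, on a log2 scale.

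*CDK6* gave the widest range of log2 ratios among the G1/S genes, and no gene on the array passed the test in either comparison with 2 arrays. Genes were tested where Cy3 or Cy5 of their brightest probe exceeded background clearly (the scanner's flag) on each array compared, which held for 9 of the 10 G1/S genes with si-PIR and 9 with miR-204-5p. *CCND2* was the exception in both. The mean ratio of 2 arrays was tested against 0 by limma with Benjamini-Hochberg adjustment over all genes tested, at a threshold of 0.05. With si-PIR, 0 of 22459 genes passed lower and 0 passed higher (0% in each direction), and at an unadjusted p under 0.05 these were 945 genes lower (4.21%) and 1396 higher (6.22%). With miR-204-5p, 0 of 20489 genes passed in either direction (0%), and 1663 (8.12%) were lower and 2263 (11%) higher at an unadjusted p under 0.05. The test had little power in the 1 setting simulated. In simulated data with 200 changed genes, the same fit called 0% of those at log2 changes of -3, -2, -1, 1 or 2. Other numbers of changed genes were not simulated. *PIR* did not pass with si-PIR either, at ratios of -5.46 and -4.27. After normexp and loess, the same 2 miR-204-5p arrays gave 611 genes lower and 744 higher, while si-PIR still gave 0 in each direction. With miR-204-5p the lack of calls thus depended on how the ratios were computed. It is not shown to come from the number of arrays alone. A gene that did not pass is therefore not shown to be unchanged. The spread behind the si-PIR test includes the difference between 2 siRNAs, and that behind the miR-204-5p test the difference between 2 cell lines. The other 4 transfected RNAs had 1 array each and were not tested. For those, the scanner software's error of a log ratio, which was 0.20 to 0.31 on the log2 scale for G1/S probes with both channels above background, is the only error available.

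Counted by size, G1/S genes at a log2 ratio of 1 or more were *CDK6* and *CDKN1A* with si-PIR-2 (2 of 9, against 5.82% of all genes tested there), *CDK6* with si-PIR-3 (1 of 9, against 3.92%), *CDK6* with miR-204-5p in MDA-MB-231 (1 of 10, against 3.36%), and *CDK6* and *CCND2* with miR-130-3p (2 of 10, against 6.4%). *CDKN1A* with si-PIR-2 was counted through Cy5 alone, since its mock signal was not well above background. Its ratio there was 0.08 after normexp and loess. Where both channels had to be well above background, 1 of 8 G1/S genes reached 1 with si-PIR-2. The share of all genes was not counted there, so this count cannot be set against 5.82%. The shares of all genes at 1 or more depend on this filter too. With miR-144-5p, 998 genes reached 1, and 184 did with both channels well above background. *CCNE2* with si-PIR-3 was the only G1/S gene at -1 or less (1 of 9, against 2.28% of all genes). With si-PIR-2, 0 of 9 reached -1 (2.87%), and with miR-204-5p in MDA-MB-231, 0 of 10 did (1.88%). With miR-130-3p, 0 of 10 reached -1 (1.93%). With miR-144-5p, 0 of 10 reached 1 (4.17% of all genes) and 0 reached -1 (1.96%). With miR-144-3p, 0 of 10 reached 1 (4.51%) and 0 reached -1 (1.11%). With miR-204-5p in SW1990, 0 of 9 reached 1 (4.56%) and 0 reached -1 (1.93%). With miR-130-5p, 0 of 10 reached 1 (7.55%) and 0 reached -1 (6.19%). After normexp and loess, 1 of 9 reached 1 with si-PIR-2 and 1 of 10 with miR-130-3p, and 0 of 9 reached 1 or -1 with si-PIR-3, where *CCNE2* was at -0.82 and *CDK6* at 0.97. Over all genes, 130 reached 1 with miR-130-3p in that setting, against 1480 of 23123 before. For the si-PIR arrays the shares of all genes after normexp and loess were not counted. These counts therefore cannot be set against the shares above.

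**Figure D1:**
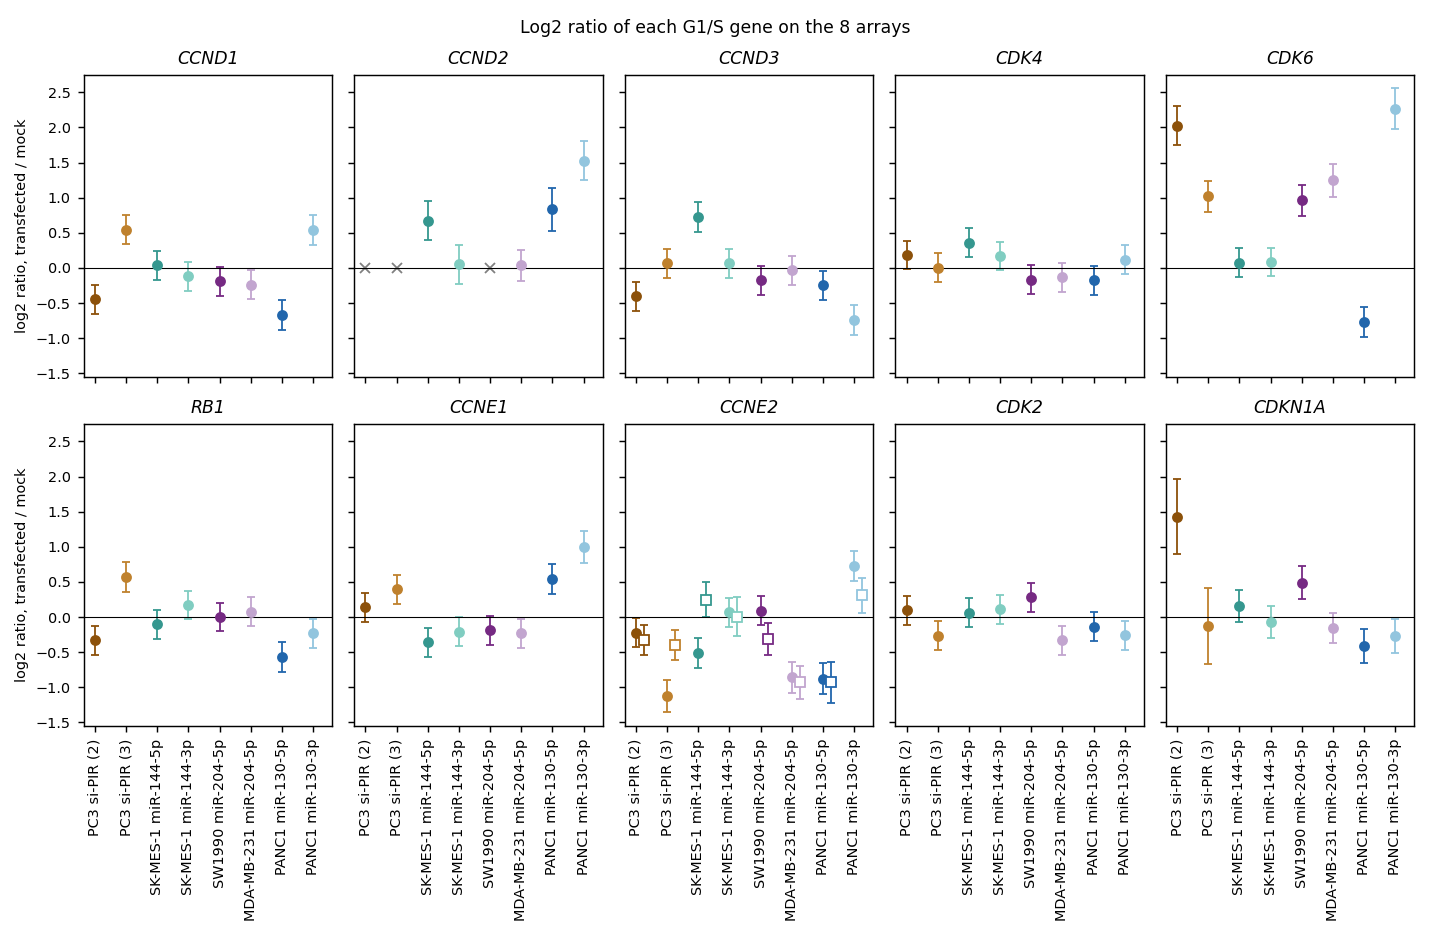
Log2 ratio of transfected over mock cells (y axis) for each of the 10 genes on each of the 8 arrays (x axis). Points are probes, with the scanner software's error as bars, open squares are the second *CCNE2* probe, and crosses mark *CCND2* where neither channel was well above background. *CDK6* reaches 2.03 with si-PIR-2 and 2.27 with miR-130-3p, while *CDK4* stays between -0.17 and 0.36.

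*CDK6*, which encodes a kinase partner of the D-type cyclins, was above 0 on 7 of 8 arrays and at 1 or more on 4 of them. Its probe lies at chr7:92234443-92234502 (hg19, minus strand). In PC3 the log2 ratio was 2.03 with si-PIR-2 and 1.02 with si-PIR-3, a mean of 1.52 with a standard error of 0.31 (n = 2), with a limma p of 0.0083 and an adjusted p of 0.44. Only 102 of the 22459 genes tested had a higher mean. Both siRNAs gave a higher *CDK6* signal than mock, with the larger ratio for si-PIR-2.

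With miR-204-5p, *CDK6* was at 0.96 in SW1990 and 1.25 in MDA-MB-231, and 241 of 20489 genes had a higher mean. The mean was 1.105 ± 0.13 (SE, n = 2; limma adjusted p = 0.21). When ratios were recomputed from the mean signals with loess, the mean was 1.09 and the limma adjusted p 0.020 after normexp background correction, and 1.097 and 0.0072 without background correction. Those settings called 611 genes lower and 744 higher, and 724 lower and 695 higher, respectively. The call of *CDK6* thus depended on how the ratios were computed, while its mean lay between 1.06 and 1.105 in all settings that kept both arrays. It was 1.25 without SW1990 and 0.96 without MDA-MB-231.

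In PANC1, *CDK6* was at -0.77 with miR-130-5p and at 2.27 with miR-130-3p. With miR-130-3p, 45 of 23123 genes were higher (0.195%), whereas with miR-130-5p 10.3% of genes were lower. The *CDK6* levels of the mock channel on these PANC1 arrays, as the log2 signal minus the 75th percentile of the channel, were 4.86 and 4.67, while those of the transfected channel were 4.10 and 6.94. The contrast between the arrays therefore lay mainly in the transfected channel. In SK-MES-1 *CDK6* was at 0.07 with miR-144-5p and 0.09 with miR-144-3p, both within the scanner error of 0.20.

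*CDK4*, the other kinase partner, showed the narrowest range of the 10 genes. Its probe lies at chr12:58142263-58142322 (hg19, minus strand). The log2 ratios were 0.18 with si-PIR-2, 0.00197 with si-PIR-3, 0.36 with miR-144-5p, 0.17 with miR-144-3p, -0.17 with miR-204-5p in SW1990, -0.13 with miR-204-5p in MDA-MB-231, -0.17 with miR-130-5p and 0.12 with miR-130-3p. Only the miR-144-5p value was larger than the scanner error of 0.21 for that spot. The means were 0.09 ± 0.18 (SE, n = 2; limma adjusted p = 0.87) with si-PIR and -0.15 ± 0.10 (SE, n = 2; limma adjusted p = 0.46) with miR-204-5p. On the same arrays *CDK6* and *CDK4* thus differed most with miR-130-3p, at 2.27 against 0.12, and with si-PIR-2, at 2.03 against 0.18.

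**Figure D2:**
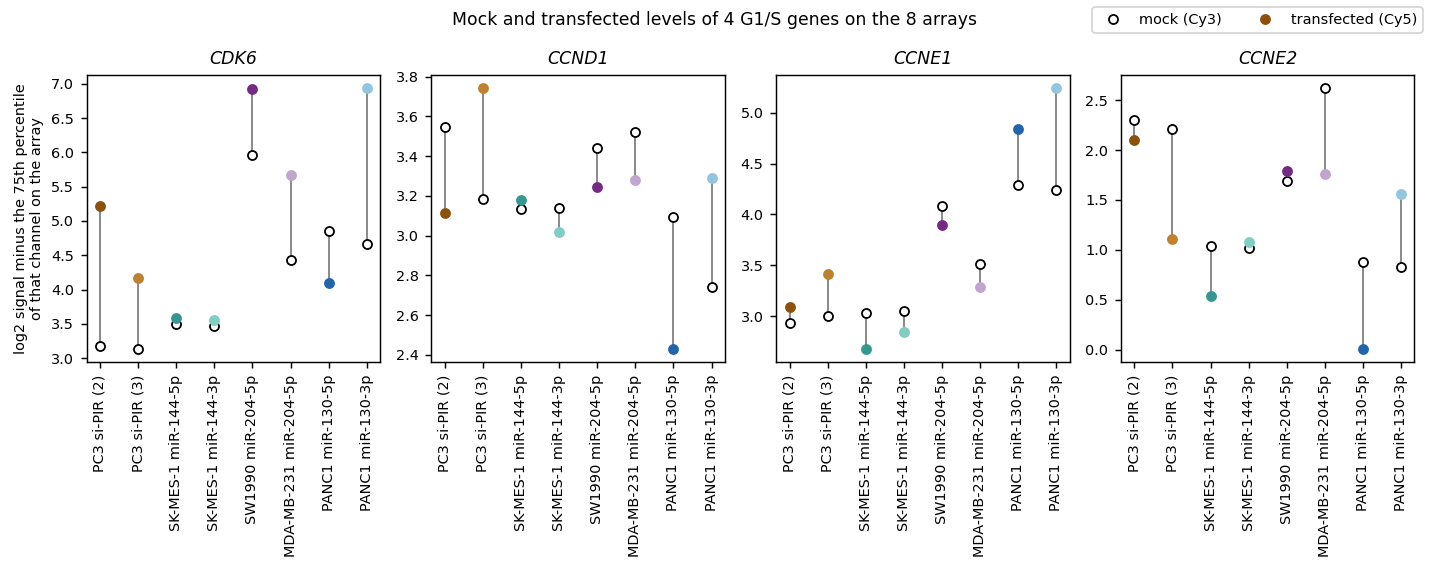
Levels of *CDK6*, *CCND1*, *CCNE1* and *CCNE2* in mock cells (open points, Cy3) and transfected cells (filled points, Cy5) on each array, as log2 signal minus the 75th percentile of that channel (y axis, scaled separately for each gene). Across arrays of the 5 cell lines, *CDK6* moves from 3.56 to 6.94 in the transfected channel and from 3.14 to 5.96 in the mock channel. For *CCND1* the mock channel differs between the 2 arrays of PC3, at 3.55 and 3.18.

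*CCND1*, which encodes cyclin D1, took opposite signs with the different si-PIR molecules and with the different strands of miR-130. Its probe lies at chr11:69468233-69468292 (hg19, plus strand). The log2 ratio was -0.45 ± 0.04 with si-PIR-2 (SD, 10 spots) and 0.55 ± 0.04 with si-PIR-3 (SD, 9 spots), and no spot of one array overlapped a spot of the other. The highest spot with si-PIR-2 was at -0.38 and the lowest with si-PIR-3 at 0.50. Spots of 1 array share their RNA, so they measure technical spread only. The 2 siRNAs gave opposite signs for *CCND1*, *CCND3*, *RB1*, *CDK2* and *CDKN1A*, 5 of the 9 G1/S genes tested, against 39.7% of all genes. Opposite signs at least 0.9 apart were found for *CCND1* and *CDKN1A*, against 9% of all genes. *RB1* fell just short of this cut, with its ratios 0.896 apart. *CDKN1A* was not well above background in the mock channel of either array.

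The mock channels of these arrays also differed for *CCND1*. The mock level of *CCND1* was 3.55 on the si-PIR-2 array and 3.18 on the si-PIR-3 array, a difference as large as that of 7.2% of the probes well above background in PC3. Its part in the opposite ratios was not tested. The transfected level was 3.12 with si-PIR-2 and 3.75 with si-PIR-3. The mean over both siRNAs was 0.05 ± 0.31 (SE, n = 2; limma adjusted p = 0.96).

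In PANC1, *CCND1* was at -0.67 ± 0.05 with miR-130-5p (SD, 10 spots) and 0.54 ± 0.05 with miR-130-3p (SD, 9 spots). Here too the mock level differed, at 3.09 and 2.74, and the transfected levels were 2.43 and 3.29. With miR-204-5p, *CCND1* was at -0.19 in SW1990 and -0.24 in MDA-MB-231 (mean -0.22 ± 0.10, SE, n = 2; limma adjusted p = 0.35). In SK-MES-1 it was at 0.04 with miR-144-5p and -0.12 with miR-144-3p. The 5 arrays below 0 and the 3 above had no common direction for *CCND1*.

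*CCND2*, which encodes cyclin D2, was dim. The probe of *CCND2* lies at chr12:4414040-4414099 (hg19, plus strand), and neither channel was well above background on the PC3 arrays or on the SW1990 array, so no ratio is read there. The log2 ratios of the other arrays were 0.67 with miR-144-5p, 0.05 with miR-144-3p, 0.04 with miR-204-5p in MDA-MB-231, 0.83 with miR-130-5p and 1.53 with miR-130-3p. The scanner error of the miR-130-3p value was 0.28, and the mean signals behind it were 29.9 in Cy3 and 65.2 in Cy5. After normexp and loess this ratio was 0.41, and without background correction 0.78, so its size depended on how the background was removed. The ratios of 0.67 and 0.83 likewise came to 0.19 and 0.11 after normexp and loess.

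*CCND3*, which encodes cyclin D3, was highest with miR-144-5p at 0.72 and lowest with miR-130-3p at -0.74. The array reads it at chr6:41903193-41903252 (hg19, minus strand). The other log2 ratios were -0.40 with si-PIR-2, 0.07 with si-PIR-3, 0.06 with miR-144-3p, -0.18 and -0.04 with miR-204-5p in SW1990 and MDA-MB-231, and -0.25 with miR-130-5p. On the miR-144-5p array 7.33% of genes were higher, and on the miR-130-3p array 4.6% were lower. Thus with miR-130-3p the D-type cyclins did not share a direction, at 0.54 for *CCND1*, 1.53 for *CCND2* and -0.74 for *CCND3*. The means with si-PIR (-0.17 ± 0.21, SE, n = 2; limma adjusted p = 0.78) and miR-204-5p (-0.11 ± 0.11, SE, n = 2; limma adjusted p = 0.61) did not pass the test.

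*RB1*, which encodes the pocket protein that D-type cyclin complexes phosphorylate, also took opposite signs with the different si-PIR molecules. The *RB1* probe maps to chr13:49055845-49055904 (hg19, plus strand). The log2 ratio was -0.33 ± 0.06 with si-PIR-2 (SD, 10 spots) and 0.57 ± 0.05 with si-PIR-3 (SD, 10 spots), and the spots did not overlap. Unlike for *CCND1*, the mock levels of *RB1* on these arrays differed by -0.015 (si-PIR-3 minus si-PIR-2), and the transfected levels were 3.07 and 3.95. The mean was 0.12 ± 0.29 (SE, n = 2; limma adjusted p = 0.89).

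With miR-204-5p, *RB1* was at 0.00052 in SW1990 and 0.08 in MDA-MB-231 (mean 0.04 ± 0.10, SE, n = 2; limma adjusted p = 0.85). In PANC1 it was at -0.56 ± 0.05 with miR-130-5p and -0.23 ± 0.04 with miR-130-3p (SD, 10 spots each). In SK-MES-1 it was at -0.10 ± 0.04 with miR-144-5p and 0.17 ± 0.04 with miR-144-3p (SD, 10 spots each). Within an array, the spot SDs of *RB1* were 0.03 to 0.06 and those of *CCND1* 0.04 to 0.05, several times smaller than the scanner errors of about 0.20 to 0.21 for the same probes.

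**Figure D3:**
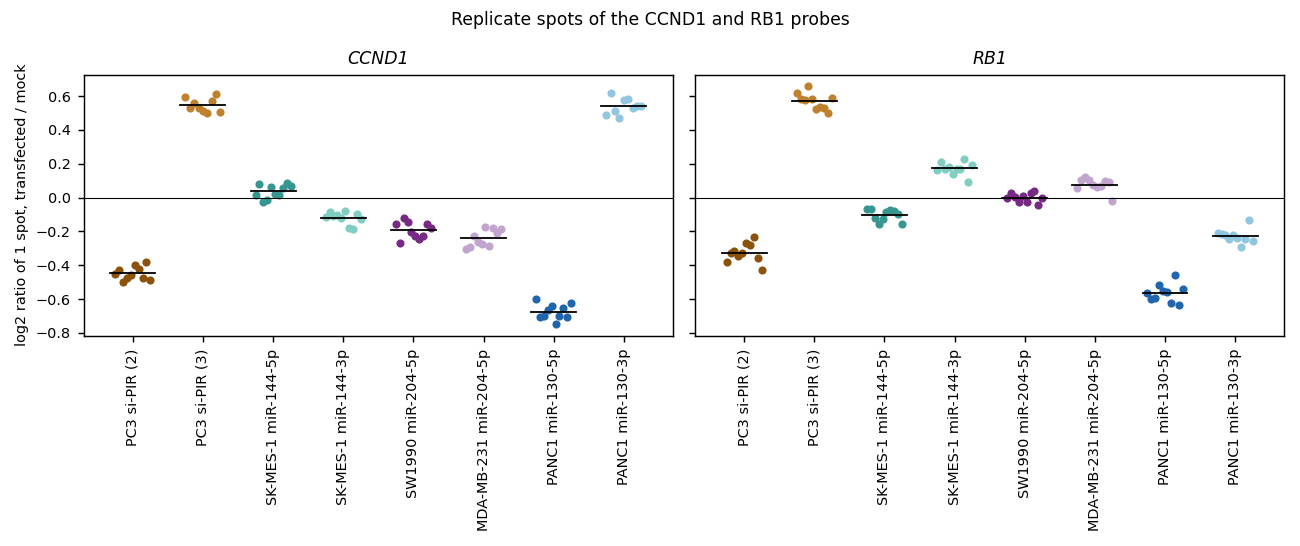
Log2 ratio of each replicate spot (y axis) of the *CCND1* and *RB1* probes on each array (x axis), with the array mean as a line. The spots of *CCND1* centre on -0.45 with si-PIR-2 and 0.55 with si-PIR-3, and those of *RB1* on -0.33 and 0.57, with no overlap between these arrays.

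*CCNE1*, which encodes cyclin E1, was lowest with miR-144-5p and highest with miR-130-3p. It was read at chr19:30315106-30315165 (hg19, plus strand). In SK-MES-1 the log2 ratio was -0.36 with miR-144-5p, against a scanner error of 0.21, and -0.21 with miR-144-3p, against 0.20. On the miR-144-5p array 15.4% of genes were lower than *CCNE1*, and on the miR-144-3p array 22.5%. The difference between the 2 strands was thus within the scanner errors, and there was no replicate array.

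Elsewhere *CCNE1* was at 0.14 with si-PIR-2 and 0.40 with si-PIR-3 (mean 0.27 ± 0.19, SE, n = 2; limma adjusted p = 0.63), and at -0.19 and -0.23 with miR-204-5p in SW1990 and MDA-MB-231 (mean -0.21 ± 0.10, SE, n = 2; limma adjusted p = 0.36). It was at 0.54 with miR-130-5p and 0.996 with miR-130-3p in PANC1. On those arrays 21.2% and 6.45% of genes were higher. *CCNE1* was therefore above 0 in PC3 and PANC1 and below 0 in SK-MES-1, SW1990 and MDA-MB-231, on every array of these lines. The ratios with si-PIR-2 and in SW1990 were within their scanner errors of 0.20. Those with miR-144-3p and in MDA-MB-231 were barely larger than theirs. SW1990 and MDA-MB-231 had 1 array each. Except for miR-204-5p, each RNA was used in 1 line, so line and RNA cannot be told apart.

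*CCNE2*, which encodes cyclin E2 and lies on chromosome 8, was read by a brighter and a dimmer probe, and the brighter one stands for the gene in the tests. In SK-MES-1 with miR-144-5p the brighter probe gave -0.51 (scanner error 0.21) and the dimmer probe 0.24 (scanner error 0.25), so the probes did not share a sign. Mean signals in Cy3 were 114 for the brighter and 32.5 for the dimmer probe. The brighter probe was at -0.26 after normexp and loess, and the mean of both probes was -0.13. On that array 9.27% of genes were lower than the brighter probe. With miR-144-3p the probes gave 0.07 and 0.01.

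In PC3, the brighter *CCNE2* probe gave -0.22 with si-PIR-2 and -1.12 with si-PIR-3, and the dimmer probe -0.33 and -0.39. All 4 values were below 0, and the size with si-PIR-3 differed between probes. The mean of the brighter probe was -0.67 ± 0.29 (SE, n = 2; limma adjusted p = 0.50), and 866 of 22459 genes had a lower mean. With miR-204-5p the brighter probe gave 0.09 in SW1990 and -0.86 in MDA-MB-231, and the dimmer one -0.31 and -0.93. *CCNE2* was the only one of 9 G1/S genes with opposite signs at least 0.9 apart in these lines (4.48% of all genes), and opposite signs of any size were found for *CCNE2*, *CDK2* and *CDKN1A* (31.6%). The mean of the brighter probe was -0.38 ± 0.29 (SE, n = 2; limma adjusted p = 0.51).

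In PANC1, *CCNE2* was low with miR-130-5p, at -0.88 and -0.93 for the brighter and dimmer probe, and high with miR-130-3p, at 0.72 and 0.31. Here both probes shared their signs. *CCNE1* and *CCNE2* had opposite signs with miR-130-5p, at 0.54 and -0.88, and the same sign with miR-130-3p, at 0.996 and 0.72.

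*CDK2*, the kinase partner of the E-type cyclins, stayed between -0.33 and 0.28. The *CDK2* probe maps to chr12:56365789-56365848 (hg19, plus strand). The log2 ratios were 0.10 with si-PIR-2, -0.27 with si-PIR-3, 0.06 and 0.11 with miR-144-5p and miR-144-3p, 0.28 and -0.33 with miR-204-5p in SW1990 and MDA-MB-231, and -0.14 and -0.26 with miR-130-5p and miR-130-3p. The limma means were -0.08 ± 0.20 (SE, n = 2; adjusted p = 0.89) with si-PIR and -0.02 ± 0.20 (SE, n = 2; adjusted p = 0.95) with miR-204-5p.

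*CDKN1A*, which encodes p21, was dim on every array, with Cy3 mean signals of 22.0 to 53.2. The *CDKN1A* probe maps to chr6:36652178-36652237 (hg19, plus strand). In mock PC3 cells it did not clear background on the 2 arrays, whereas in transfected cells it did on both, and the log2 ratio was 1.43 with si-PIR-2 (scanner error 0.54) and -0.13 with si-PIR-3 (scanner error 0.54). The 2 arrays had opposite signs. The measured mean was 0.65 ± 0.43 (SE, n = 2; limma adjusted p = 0.61), and it was 0.017 after normexp and loess.

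In the other lines *CDKN1A* was well above background in both channels. It was at 0.15 and -0.07 with miR-144-5p and miR-144-3p, at 0.49 and -0.16 with miR-204-5p in SW1990 and MDA-MB-231, and at -0.41 and -0.27 with miR-130-5p and miR-130-3p. The mean with miR-204-5p was 0.16 ± 0.21 (SE, n = 2; limma adjusted p = 0.69). The highest of these ratios, 0.49 in SW1990, came to 0.19 after normexp and loess.

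The levels of the G1/S genes in mock cells differed between lines by more than between arrays of a line for several genes. A mock level is the log2 Cy3 signal minus the 75th percentile of the array, and it is compared between lines for 1 probe at a time. PC3, SK-MES-1 and PANC1 had 2 mock channels each, which may be the same RNA, and SW1990 and MDA-MB-231 had 1 each, so levels are described without a test. Differences between the highest and lowest line were smaller for all 10 genes after normexp, from 2.81 to 2.55 for *CDK6*, from 2.63 to 2.15 for *CCND3* and from 1.77 to 1.22 for *CCNE2* on the log2 scale. Over all probes well above background, the SD of the difference between the mock channels of a line was 0.202 in PC3, 0.189 in SK-MES-1 and 0.183 in PANC1.

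*CDK6* was highest in SW1990 at 5.96, followed by PANC1 at 4.76, MDA-MB-231 at 4.43, SK-MES-1 at 3.49 and PC3 at 3.16. The arrays of a line differed by at most 0.18 for *CDK6*, less than each step of this order, and the highest level was 6.99-fold the lowest. *CCND3* was highest in MDA-MB-231 at 4.25, with SW1990 at 2.57, PC3 at 2.48, PANC1 at 1.86 and SK-MES-1 at 1.62, and only SW1990 and PC3 were closer than the largest gap between arrays of a line, 0.16. Cyclin D3 message was thus 6.20-fold higher in MDA-MB-231 than in SK-MES-1. *CCND2* was well above background in mock cells of MDA-MB-231 at -1.18, SK-MES-1 at -2.55 and PANC1 at -2.65, and not in SW1990 or PC3.

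*CCNE1* was highest in PANC1 at 4.27 and SW1990 at 4.08, then MDA-MB-231 at 3.52, SK-MES-1 at 3.04 and PC3 at 2.97, a range of 2.46-fold. *CCNE2* had another order, with MDA-MB-231 at 2.62, PC3 at 2.26, SW1990 at 1.69, SK-MES-1 at 1.03 and PANC1 at 0.85, a range of 3.42-fold. The dimmer *CCNE2* probe also put MDA-MB-231 first and PC3 second, 0.06 apart, but placed PANC1 above SK-MES-1. PANC1 therefore had the highest *CCNE1* level and the lowest level of the brighter *CCNE2* probe.

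*RB1* was highest in SW1990 at 4.47 and MDA-MB-231 at 4.17 and lay at 3.66 in PANC1, 3.40 in SK-MES-1 and 3.37 in PC3, where the last 2 were closer than the gap between arrays of a line, 0.08. *CDK2* was lowest in SK-MES-1 at -0.25 and between 0.63 and 1.13 in the other lines. *CDK4* and *CCND1* varied least, by 1.61-fold and 1.52-fold. For *CCND1* each step between neighbouring lines was smaller than 0.36, the gap between the PC3 mock channels. *CDKN1A* was highest in MDA-MB-231 at -0.27, between -1.33 and -1.06 in SW1990, SK-MES-1 and PANC1, and not well above background in PC3.

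**Figure D4:**
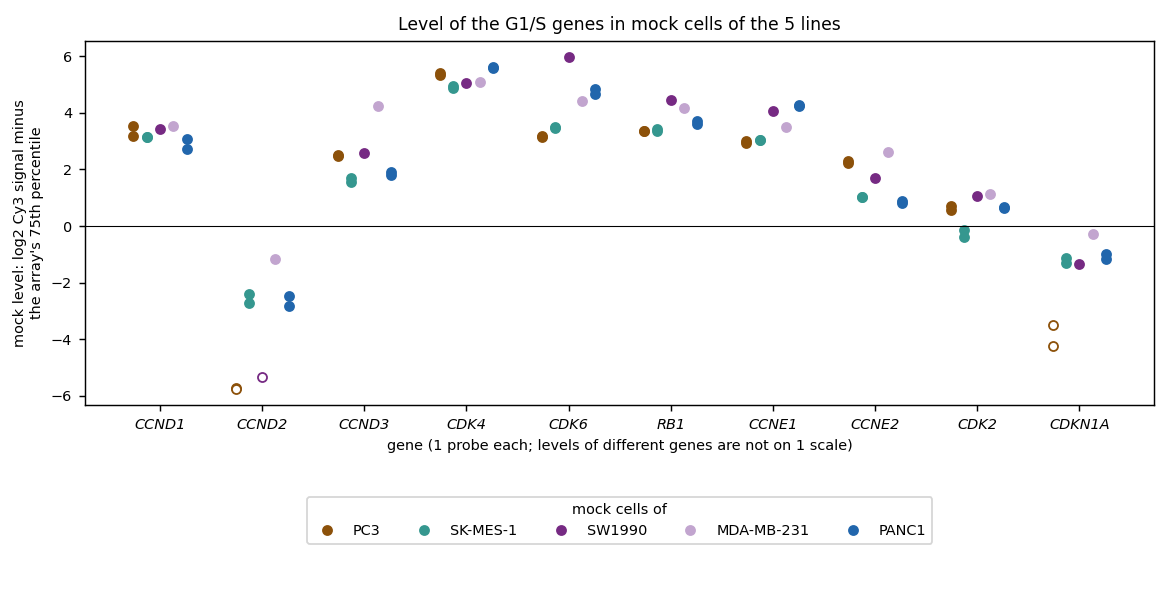
Mock level of each gene (y axis, log2 Cy3 signal minus the 75th percentile of the array) in the 5 cell lines, with 1 point per array and open points where the probe was not well above background. *CDK6* is highest in SW1990 at 5.96, *CCND3* in MDA-MB-231 at 4.25 and *CCNE1* in PANC1 at 4.27.

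Genes around the G1/S transition were described by 3 lists, which hold 32 other G1/S regulators, 30 E2F target genes and 22 p53 target genes, of which 32, 30 and 21 were on the array by these names. Since the arrays measured RNA of whole cultures, fewer cycling cells and less message per cell cannot be told apart. In the 2-array comparisons 0 genes of any list passed the limma test in either direction, against 0% of all genes, and the counts below use an unadjusted p under 0.05 or the size of the ratio.

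The E2F target genes, which encode replication and nucleotide synthesis proteins, were mostly below 0 with miR-204-5p and miR-130-5p and mostly above 0 with miR-144-5p. With miR-204-5p 27 of 30 were below 0, with a median of -0.34 against 0.05 over all genes tested, and 15 had an unadjusted p under 0.05 and a lower level (8.12% of all genes). Medians were -0.28 in SW1990 and -0.36 in MDA-MB-231, with 27 of 30 below 0 in each, against 43.9% and 44.7% of all genes. The 3 lowest were *RRM2* at -0.91, *MCM4* at -0.88 and *CHEK1* at -0.79, and the 3 highest *RPA2* at 0.16, *GINS1* at 0.12 and *POLE* at 0.02. With miR-130-5p 26 of 30 were below 0 (43.8% of all genes), with a median of -0.67 against 0.09, and 6 were at -1 or less (6.19% of all genes).

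With miR-130-5p the lowest E2F target genes were *CDC45* at -1.34 and *RRM2* at -1.31, and the highest *RPA2* at 0.60, *SLBP* at 0.42 and *CDT1* at 0.37. With miR-130-3p, which shares its mock line with miR-130-5p, 8 of 30 were below 0 (46.8% of all genes) and 22 above, with a median of 0.15 against 0.03, from *RPA2* at -0.49, *MCM7* at -0.25 and *MCM5* at -0.21 up to *RFC3* at 0.55, *MCM10* at 0.54 and *GINS1* at 0.80. The directions of the medians in PANC1 and with miR-204-5p were the same after normexp and loess, without background correction, and after median centring.

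In SK-MES-1, 4 of 30 E2F target genes were below 0 and 26 above with miR-144-5p, with a median of 0.28 against 0.04, and 7 were below and 23 above with miR-144-3p, with a median of 0.21 against 0.02. Of all genes, 45.7% and 46.6% were below 0 on these arrays. None reached 1 or -1 on either array, where 4.17% and 4.51% of all genes reached 1 and 1.96% and 1.11% reached -1. With miR-144-5p they ran from *MCM7* at -0.48, *TK1* at -0.22 and *CHEK1* at -0.18 to *RRM2* at 0.58, *UHRF1* at 0.58 and *TYMS* at 0.58. With miR-144-3p they ran from *MCM7* at -0.39, *TK1* at -0.26 and *ORC1* at -0.17 to *RFC3* at 0.41, *RRM2* at 0.48 and *MCM10* at 0.48. *CCNE1* at -0.36 and the brighter *CCNE2* probe at -0.51 with miR-144-5p lay on the other side of 0 from most of these genes. The dimmer *CCNE2* probe, at 0.24, lay on the same side as most of them. With miR-144-3p *CCNE1* was below 0 as well, at -0.21, and the *CCNE2* probes were at 0.07 and 0.01.

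With si-PIR the E2F target genes gave mixed signs, with 17 of 30 below 0 and a median of -0.09 against 0.03. By array, 14 and 21 of 30 were below 0, against 45% of all genes on each. The lowest were *UHRF1* at -0.87, *MCM4* at -0.77 and *CDC6* at -0.46, the first of which had values of -0.81 and -0.93 on the 2 arrays, and the highest were *CDT1* at 0.43, *GINS1* at 0.29 and *POLE* at 0.29. Lower with an unadjusted p under 0.05 were 2 of 30, against 4.21% of all genes.

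Among the other G1/S regulators, 31 of 32 were tested with si-PIR and 30 in each of the other comparisons. With miR-204-5p 9 were lower and 6 higher at an unadjusted p under 0.05 (8.12% and 11% of all genes). The lowest were the CDK4 and CDK6 inhibitor genes *CDKN2C*, at -1.65 in SW1990 and -1.25 in MDA-MB-231, and *CDKN2D*, at -0.74 and -0.92, together with *E2F2*, at -0.79 and -1.32. *CDKN2C* had a mean of -1.45 ± 0.15 (SE, n = 2; limma adjusted p = 0.21). The highest were *E2F5* at 0.76, the CDK inhibitor gene *CDKN1B* at 0.75 and *E2F6* at 0.60, as means of the 2 lines.

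With si-PIR, 0 of these regulators were lower and 2 higher at an unadjusted p under 0.05 (4.21% and 6.22% of all genes). The highest were *CDC25A*, which encodes a phosphatase that activates CDKs, at 0.76 (0.72 and 0.81 on the 2 arrays), *CDKN1B* at 0.69 and the ubiquitin ligase gene *FBXW7* at 0.53. The lowest were *CDK7* at -0.84, *E2F5* at -0.83 and *CUL1* at -0.32. All of them differed between si-PIR-2 and si-PIR-3, with *CDK7* at -1.39 and -0.28, *E2F5* at -0.18 and -1.48, and *CUL1* at -0.04 and -0.60.

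With miR-130-3p, 4 of 30 regulators were at 1 or more (6.4% of all genes), the highest being *WEE1* at 1.73, *CDC25A* at 1.67 and *FBXW7* at 1.39, and the lowest *CCNH* at -0.46, *SKP1* at -0.44 and *E2F8* at -0.23. With miR-130-5p 2 were at -1 or less (6.19%), which were the ubiquitin ligase gene *SKP2* at -1.43 and the pocket protein gene *RBL1* at -1.42, followed by *CCNA2* at -0.89, and 1 was at 1 or more (7.55%), which was *MYC* at 1.05, ahead of *CDKN2A* at 0.73 and *E2F3* at 0.59. In SK-MES-1 0 of 30 reached 1 or -1 on either array. With miR-144-5p the ends were *E2F5* at -0.48, *RBL1* at -0.41 and *CCNA2* at -0.33, and *E2F8* at 0.66, *E2F3* at 0.64 and *SKP2* at 0.57. With miR-144-3p they were *TFDP2* at -0.40, *CDC25A* at -0.31 and *E2F5* at -0.31, and *E2F8* at 0.53, *E2F3* at 0.49 and *E2F6* at 0.47.

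Of the p53 target genes, 21 were tested in each comparison. Below 0 were 8 with miR-144-5p, 10 with miR-144-3p and 9 with miR-130-3p, against 45.7%, 46.6% and 46.8% of all genes. By mean ratio, 11 were below 0 with si-PIR and 11 with miR-204-5p. By array, 13 were below 0 with si-PIR-2 and 10 with si-PIR-3, against 45% of all genes on each. With miR-204-5p 11 were below 0 in SW1990 and 8 in MDA-MB-231, against 43.9% and 44.7%. With miR-130-5p 6 were below 0 and 15 above, with a median of 0.23 against 0.09 over all genes, of which 43.8% were below 0. With si-PIR the median was -0.0012 against 0.03, and 3 were lower and 2 higher at an unadjusted p under 0.05 (4.21% and 6.22%). They ran from *ZMAT3* at -0.99, *FDXR* at -0.59 and *RRM2B* at -0.50 to *FAS* at 1.09, *TNFRSF10B* at 0.62 and *PPM1D* at 0.39. With miR-204-5p 1 was lower and 2 were higher (8.12% and 11%), from *DDB2* at -0.71, *MDM2* at -0.44 and *XPC* at -0.37 to *TNFRSF10B* at 0.73, *ZMAT3* at 0.54 and *SESN1* at 0.48.

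With miR-130-5p 3 p53 target genes were at -1 or less and 2 at 1 or more (6.19% and 7.55% of all genes), namely *RRM2B* at -1.34, *TP53INP1* at -1.08 and *XPC* at -1.03, and *BBC3* at 1.40 and *AEN* at 1.20, with *GADD45A* next at 0.82. With miR-130-3p 1 was at -1 or less (1.93%), *ZMAT3* at -1.55, before *FDXR* at -0.63 and *PHLDA3* at -0.54, and 2 were at 1 or more (6.4%), *BTG2* at 1.13 and *BBC3* at 1.11, before *SESN1* at 0.94. With miR-144-5p 1 was at -1 or less (1.96%), *TP53INP1* at -1.01, before *CCNG1* at -0.62 and *TP53I3* at -0.51, with *GADD45A* at 0.90, *FAS* at 0.70 and *SESN1* at 0.36 at the other end. With miR-144-3p *CCNG1* at -0.83, *TP53INP1* at -0.79 and *TP53I3* at -0.65 were lowest, and *FAS* at 0.71, *TNFRSF10B* at 0.53 and *SESN2* at 0.53 highest. *CDKN1A* itself, also a p53 target, was within 0.41 of 0 on each of these 4 arrays.

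**Figure D5:**
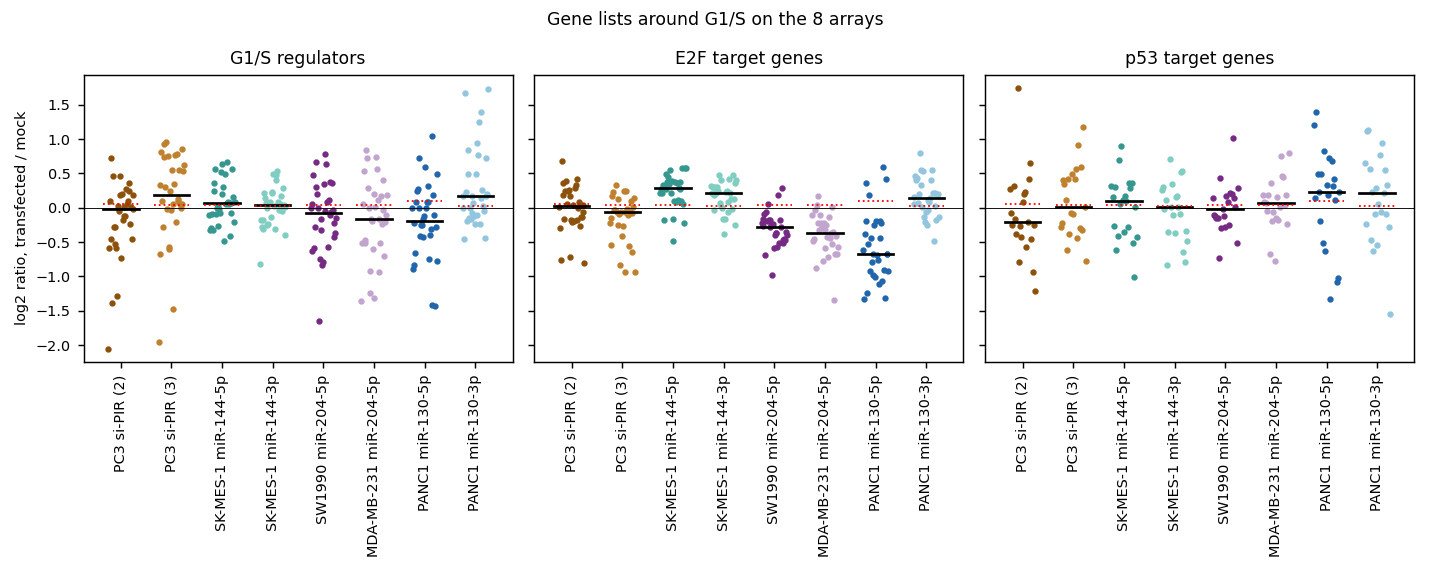
Log2 ratio of each gene (points, y axis) of the lists of G1/S regulators, E2F target genes and p53 target genes on the 8 arrays (x axis). Black lines are the list medians and dotted red lines the medians of all genes tested on that array. The E2F target median is -0.67 with miR-130-5p and 0.28 with miR-144-5p.

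Across the 8 arrays, the genes with a ratio pattern most like that of *CCNE1*, by Pearson correlation among 18660 genes measured on all 8 arrays, were XLOC_l2_002767 (r = 0.97), *SNX7* (0.96), XLOC_l2_012162 (0.96), *IL6R* (0.96) and lnc-PABPC4-2 (0.96). For *CCNE2* they were *UTP6* (r = 0.96), *TFCP2* (0.95), THC2601170 (0.93), *RGS2* (0.93) and lnc-TRAPPC4-1 (0.92), and for *CDKN1A* *SCMH1* (r = 0.97), lnc-TTR-1 (0.96), *MRPL52* (0.96), *ZSWIM1* (0.95) and *LPCAT1* (0.95). None of these was a gene of the lists above. The arrays of PC3, SK-MES-1 and PANC1 share mock cells of the line in pairs, and the correlations are given as a description. They were picked as the highest among 18660 genes over 8 arrays and were not tested. The *CDKN1A* pattern includes the ratio of 1.43 with si-PIR-2, where its mock signal was not well above background. After normexp and loess that ratio was 0.08.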

How the data were processed

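RNA of mock cells (Cy3) and transfected cells (Cy5) was compared on 8 Agilent arrays, grouped by the transfection labels, on 1 slide with 1 scan time. The authors deposited scanner output of Agilent Feature Extraction 11.5.1.1, which holds intensities on a linear scale, local background, and log10 ratios of Cy5 over Cy3 after its background correction and linear and LOWESS dye normalization. The deposited value table repeated these log10 ratios (differences of 0). Probe positions are those of the array annotation (hg19) and were not placed in exons or UTRs. All 11 probes matched a RefSeq transcript of the same symbol.

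Ratios were turned to log2. Control spots were dropped, as were 126 to 173 spots per array that the software flagged as outliers, spots of a probe were averaged, and the probe with the highest mean log2 signal over all arrays stood for its gene. Means of 2 arrays were tested with limma 3.58.1 in R 4.3.3. Arrays were not shown to come from separate cultures, so p-values measure the spread between these arrays, and their number limits the precision. In simulated data for si-PIR with 22459 genes and for miR-204-5p with 20489 genes, 200 of them changed, the fit called 0% of the genes changed by -3, -2, -1, 1 or 2 on the log2 scale, although their sign was right for 95% to 100%. The alternatives were normexp with an offset of 50 and loess, no background correction and loess, median centring, other filters, other probe rules, all 8 arrays in 1 fit, the deposited table, ratios of 0.5 and 1.5, and leaving out each array.

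The genes and lists were chosen with earlier results of these data known, and the lists came from general knowledge. Named were all 10 genes, *PIR*, the 3 lowest and 3 highest genes of each list in each comparison, and the 5 genes with the highest correlation to *CCNE1*, *CCNE2* and *CDKN1A*. Some genes that this rule or the marker lists name are not reported here. Figures were drawn with matplotlib 3.10.9.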

Additional observations from a re-analysis of the deposited data

Results flagged for a closer look

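With miR-204-5p, 3 of the G1/S genes had opposite signs in the 2 cell lines on their brightest probe, with 1 array per line, and the difference between the lines was not tested. *CCNE2* had a log2 ratio of 0.092 in SW1990 and -0.859 in MDA-MB-231, while its dimmer probe was below 0 in both, at -0.31 and -0.93. *CDK2* was at 0.281 in SW1990 and -0.328 in MDA-MB-231. *CDKN1A* was at 0.489 in SW1990 and -0.162 in MDA-MB-231. Opposite signs in these lines were found for 31.6% of the 20489 genes tested.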

How the results depend on the processing

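Of the values of single G1/S genes tested, 166 kept their direction and side of the threshold, 11 reversed and 2 passed the threshold only under an alternative. The latter were *CDK6* with miR-204-5p, at 1.09 after normexp and loess and 1.097 without background correction. Part of the 166 could not have come out otherwise. The deposited table repeats the ratios of the report. Other filters and the fit of all 8 arrays left each ratio as it was and could change only its p-value. The same holds for the mean over probes where a gene has 1 probe. The count is therefore not a measure of robustness. Leaving out either si-PIR array gave -0.45 to 0.55 for *CCND1*, -0.40 to 0.068 for *CCND3*, -0.33 to 0.57 for *RB1*, -0.27 to 0.099 for *CDK2* and -0.13 to 1.43 for *CDKN1A*. With miR-204-5p, *RB1* was at -0.0019 after median centring, *CDK2* at 0.041 after normexp and 0.052 without background correction, and leaving out either line gave -0.86 to 0.092 for *CCNE2*, -0.33 to 0.28 for *CDK2* and -0.16 to 0.49 for *CDKN1A*. A lone array was assumed to vary like the other groups in a fit of 8 arrays. The causes were not tested.

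Counts over all genes with si-PIR were 0 in every setting. With miR-204-5p they were 611 lower and 744 higher after normexp and loess, 724 and 695 without background correction, and 5 lower where both channels had to be well above background. Genes lower and higher by 1 or more numbered, after normexp and loess, 72 and 42 with miR-144-5p, 17 and 22 with miR-144-3p, 315 and 175 with miR-130-5p, and 67 and 130 with miR-130-3p, against 470 and 998, 270 and 1096, 1386 and 1692, and 446 and 1480 in the report, so the split between lower and higher also moved. In the same order they were 107 and 76, 37 and 94, 602 and 289, and 126 and 197 without background correction. At a log2 ratio of 0.5 they were 2291 and 3164, 1666 and 2918, 4006 and 5258, and 2416 and 3913, and at 1.5 they were 117 and 459, 60 and 465, 424 and 719, and 108 and 523. With no filter on dim probes, 1691, 1875, 2620 and 1775 were lower, and 1787 and 2617 higher with miR-144-5p and miR-130-5p. With both channels well above background, 184, 119, 681 and 338 were higher.

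The line with the highest mock level was the same for 10 of 10 genes under both alternatives, but of the differences between the highest and lowest line 11 moved and 9 did not. After normexp they were 0.59 for *CCND2*, 0.57 for *CDKN1A* and 0.71 for *CDK2*, against 4.56, 3.61 and 1.38 in the report's setting. *CCND2* and *CDKN1A* were not well above background in mock cells of some lines. Each ratio set transfected against mock RNA of the same array, so the tests were paired within arrays. Pairing of arrays between groups was not possible, since each group other than si-PIR had 1 array. Slide and scan could not be fitted as blocks, since there was 1 of each.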
